A study of Mus musculus with 35 samples.

Results

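The genes described here build the contractile apparatus of skeletal muscle, and they were followed in skin that had been given ionising radiation. They were chosen by name: 40 gene symbols for proteins of the sarcomere, for calcium handling, for energy supply and for the secreted growth inhibitor myostatin. All 40 were found among the 36106 genes of the count table. Bulk RNA-seq had been done on 35 skin samples from 19 female C57BL/6J mice, an inbred strain, which were 10 weeks old and carried no engineered allele per the labels. Left-flank skin of 16 of these mice received 25 Gy at 3.6 Gy per min over 420 seconds, and the treated skin was then shaved.

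The radiated samples were biopsies of that site, with 4 at each of weeks 1, 2, 3 and 4. The control samples, also 4 per week, carry the same week and number as a radiated sample. Since the samples outnumber the mice by 16, samples sharing a week and a number were treated as skin of 1 animal. The labels give neither the body site of the control skin nor the time at which the 3 sham samples, from mice without radiation, were collected. The labels name no sequencing batch. The p-values below measure the spread between these samples.

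A sarcomere is the repeating unit of a muscle fibre, in which thick filaments of myosin pull on thin filaments of actin. Titin spans from the Z-disc to the M-band, and troponin and tropomyosin on the thin filament let calcium start contraction. Fast and slow fibres build the same machine from different paralogs of myosin, troponin and myosin-binding protein C. Mouse skin has a thin sheet of striated muscle beneath it, the panniculus carnosus, so a skin biopsy can carry muscle RNA. Myostatin (Mstn) is made by muscle fibres and restrains muscle growth.

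Promoter sequences were available for 32 of the 40 genes in the RefSeq table used (build GRCm38.p6). The windows of 4 genes are printed because the results turn on them: of the 32 genes, Mstn, the fast heavy chain Myh4 and the calcium buffer Pvalb had the largest falls at week 4, and the fast heavy chain Myh2 was 1 of 4 genes that rose then. Each window is the 250 bases before the annotated start, written 5′ to 3′ on the strand of the gene. Capitals mark matches to 3 motifs searched on both strands: the E-box CANNTG bound by myogenic factors, the MEF2 motif and the CArG motif bound by serum response factor.
Mstn, chr1:53061390-53061639, plus strand: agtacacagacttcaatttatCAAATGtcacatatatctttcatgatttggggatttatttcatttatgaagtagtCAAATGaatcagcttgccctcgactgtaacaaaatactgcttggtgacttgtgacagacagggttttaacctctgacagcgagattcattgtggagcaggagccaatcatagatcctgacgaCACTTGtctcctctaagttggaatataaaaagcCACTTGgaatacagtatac
Myh4, chr11:67237562-67237811, plus strand: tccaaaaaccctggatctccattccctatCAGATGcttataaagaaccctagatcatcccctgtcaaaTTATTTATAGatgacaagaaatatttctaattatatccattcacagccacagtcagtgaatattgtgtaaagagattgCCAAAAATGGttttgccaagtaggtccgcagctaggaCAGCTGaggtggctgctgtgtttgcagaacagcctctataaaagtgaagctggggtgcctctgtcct
Pvalb, chr15:78206401-78206650, minus strand: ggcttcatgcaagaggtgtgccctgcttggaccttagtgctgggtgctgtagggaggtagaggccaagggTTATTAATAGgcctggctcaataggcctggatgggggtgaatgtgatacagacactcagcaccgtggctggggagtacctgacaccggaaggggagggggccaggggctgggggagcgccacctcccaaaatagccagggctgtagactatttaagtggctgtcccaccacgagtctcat
Myh2, chr11:67170777-67171026, plus strand: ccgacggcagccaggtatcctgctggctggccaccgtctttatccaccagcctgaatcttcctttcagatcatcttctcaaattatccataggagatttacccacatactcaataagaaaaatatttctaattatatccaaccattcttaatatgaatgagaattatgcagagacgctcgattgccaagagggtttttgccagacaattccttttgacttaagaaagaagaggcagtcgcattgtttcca
The Mstn window held 4 E-box matches. That of Myh4 held 2 E-box matches, 1 MEF2 match and 1 CArG match. The Pvalb window shown held 1 MEF2 match, while a second window of Pvalb, not shown, held 1 E-box match and 0 of the MEF2 motif, and the letters of none of the 3 motifs were in the Myh2 window. The 32 genes had 39 windows, of which 84.6% held an E-box, 15.4% a MEF2 match and 15.4% a CArG match. Among all 32851 windows of the table the shares were 66.2%, 2.9% and 1.5%. In 0 of the 39 windows did matches of different motifs overlap. A match describes letters and not a bound site.

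Library totals ran from 17362853 to 28487885 counts, so 3 counts, taken as the floor of detection, stood for 0.114 to 0.175 CPM, that is counts scaled to 1000000 per library after TMM normalisation. Skeletal muscle RNA was present in every library. The 40 genes together took 4.85% ± 2.47 (SD, n = 3) of all counts in sham skin, 9.28% ± 2.00 (n = 4) in week-1 control skin and 1.83% ± 0.552 (n = 4) in week-4 radiated skin. Of the control libraries, replicate 1 of week 4 stood apart with 0.675%, against at most 6.86% in its group, and its effect on the week-4 calls is given with the counts. In bulk tissue, fewer muscle fibres in a biopsy and less RNA per fibre cannot be told apart.

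Divided by the length of the longest transcript, the fast isoforms led. Over all samples the mean level was 3668 CPM per kb for Tnnt3 (fast troponin T), 1534 for Tnni2 (fast troponin I), 1367 for Myh4 (the heavy chain of IIb fibres) and 252 for Ttn (titin). The slow isoforms were at the other end of that order, with 13.3 CPM per kb for Tnnt1 (slow troponin T), 2.08 for Tnnc1 (slow and cardiac troponin C), 1.05 for Tnni1 (slow troponin I) and 0.208 for Myh7 (the slow heavy chain). Mstn stood at 43.4 CPM per kb. The slow member that broke this order was Mybpc1 (slow myosin-binding protein C), at 118 CPM per kb. The order was not the same in every group. In week-4 radiated skin Myh4, at 45.8 CPM per kb, lay below Ttn (81.0) and Myh1 (218), and Mstn, at 0.626 CPM per kb, lay below Tnnt1 (21.2), Tnnc1 (2.06) and Tnni1 (1.75).

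Mstn, at chr1:53061640-53068079 on the plus strand of GRCm38, showed the largest difference between radiated and control skin of the 40 genes at weeks 3 and 4. In week-3 control skin its CPM was 122, 163, 72.9 and 101 in replicates 1 to 4, and in radiated skin 1.37, 1.77, 5.94 and 4.01. In week 4 the control samples had 9.10, 63.0, 28.4 and 129 CPM and the radiated samples 2.18, 2.83, 0.921 and 0.847 CPM. The groups did not overlap in either week, nor in weeks 1 and 2. At week 1 control samples ran from 261 to 430 CPM and radiated samples from 34.9 to 182 CPM. At week 2 control samples ran from 157 to 520 CPM and radiated samples from 22.5 to 116 CPM. On the log2 scale, Mstn was lower by −5.09 (SE 0.50, edgeR quasi-likelihood, adjusted p = 0.00073) at week 3 and by −5.07 (SE 0.81, adjusted p = 0.00068) at week 4, which are falls of 34.1-fold and 33.5-fold. At weeks 1 and 2 the log2 differences of −2.05 and −2.20 did not pass (adjusted p = 0.19 and 0.15). With a term for the mouse the week-2 difference passed (edgeR adjusted p = 0.0139). Without radiated replicate 1, the highest of its group at 182 CPM, the week-1 difference was −2.81 (edgeR adjusted p = 0.0027).

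Ttn, at chr2:76703980-76982547 on the minus strand, changed less. Its CPM in week-3 control skin was 39707, 56624, 32258 and 39243, and in radiated skin 17636, 14718, 14536 and 7536. All 4 radiated samples lay below all 4 control samples, and Ttn fell by 1.59 on the log2 scale (SE 0.33, edgeR adjusted p = 0.0077). In week 4 the control samples had 2675, 18318, 19151 and 24955 CPM and the radiated samples 10213, 11447, 5403 and 7538 CPM. The control library that stood apart was the lowest of all 8, and the difference was −0.91 (SE 0.53, edgeR adjusted p = 0.19). Without that library it was −1.24 (edgeR adjusted p = 0.0026).

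**Figure D1:**
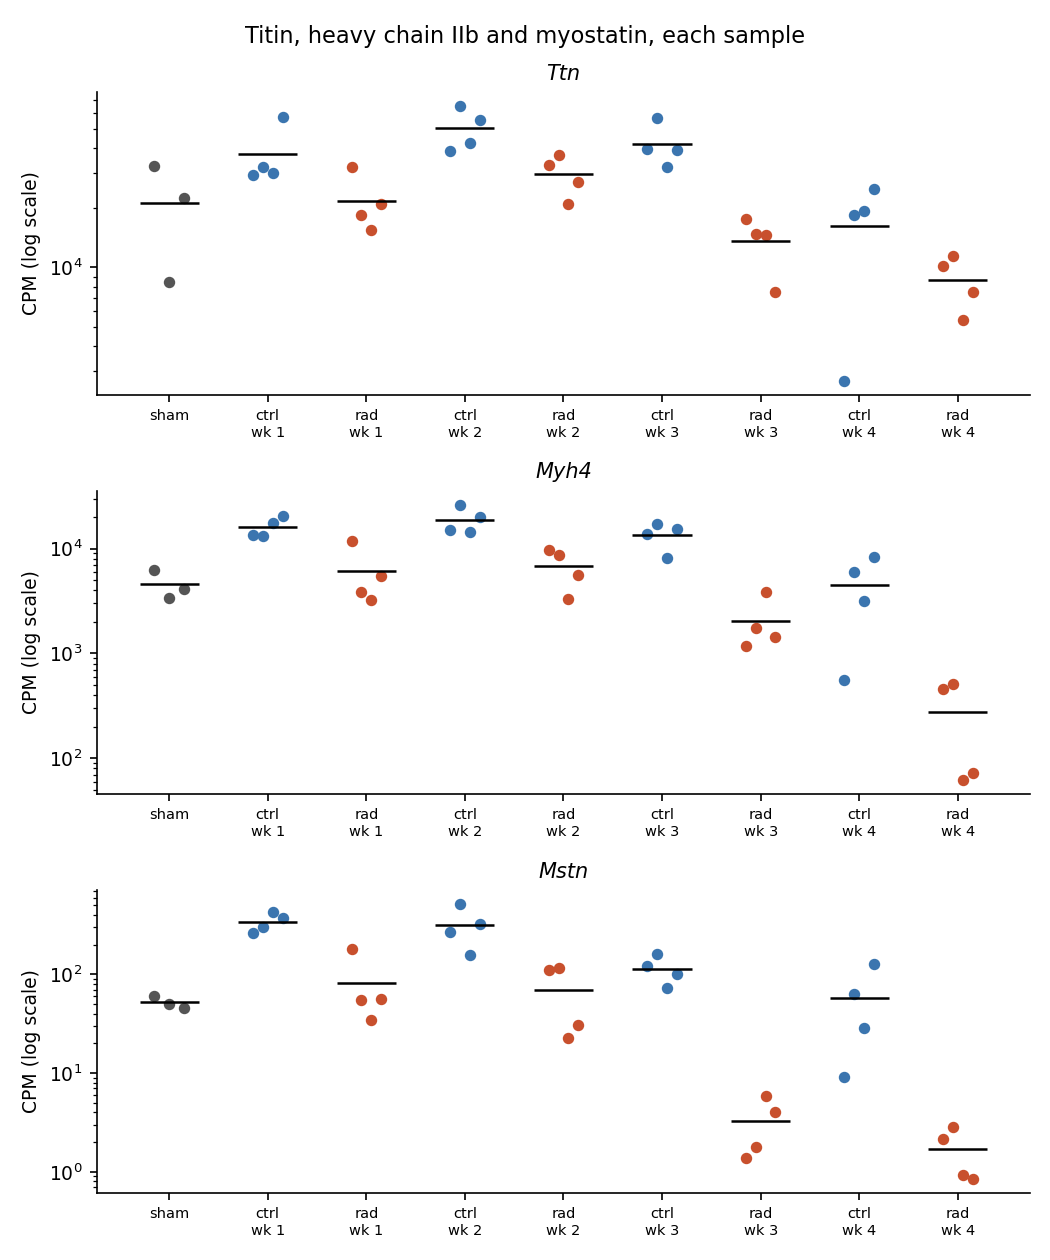
Levels of Ttn, Myh4 and Mstn as CPM on log axes against group (sham, then control and radiated skin of weeks 1 to 4), with sham in grey, control in blue and radiated in red. Each point is 1 sample and each line a group mean. The radiated Mstn points of weeks 3 and 4 sit between 0.847 and 5.94 CPM, below every control point of their week, while the Ttn points of week 4 overlap.

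Across the 40 genes, the week-3 comparison gave the most calls. At week 3, 28 of 39 genes tested fell and 2 rose (edgeR, adjusted p under 0.05), against 13.6% lower and 13.6% higher of all genes tested, and the median log2 difference was −1.85, against 0.08 over all genes. At week 4, 13 of 40 fell and 4 rose, against 24.2% lower and 24.2% higher of all genes, with a median of −1.14 against 0.02. Radiated and control samples did not overlap at week 3 for 28 lower genes (17.3% of all genes) and 3 higher (14.4%), and at week 4 for 4 lower (23.2%) and 3 higher (22.9%). The week-4 count of lower genes rested on the control library that stood apart: without it 30 fell and 3 rose, against 22.6% and 24.4% of all genes. With a term for the mouse, 5 fell and 3 rose at week 4, a smaller share than the 21.3% lower and 21.4% higher of all genes in that fit. Without radiated replicate 4, 9 fell and 2 rose, against 20.8% and 21.0% of all genes. Without control replicate 1 of week 4, Mstn was at −5.4 on the log2 scale, Pvalb at −4.89, Actn3 at −4.56, Myh4 at −4.37 and Mylpf at −2.71 (edgeR adjusted p from 9.27e-05 to 0.0016). The fast troponins Tnnt3, Tnni2 and Tnnc2 were then at −2.62, −2.35 and −2.26 and Ckm at −2.62 (adjusted p up to 0.00068). Tnnt1 was at 2.76, Tnni1 at 1.27 and Myoz2 at 0.99 (adjusted p from 0.0066 to 0.011), and Mb at 0.39 did not pass (adjusted p = 0.30). The genes called lower in addition were Ttn, Neb, Acta1, Myh1, Myl1, Mybpc1, Mybpc2, Myom1, Myot, Tpm1, Tpm2, Tcap, Ldb3, Des, Ryr1, Cacna1s and Xirp2, with differences from −1.92 (Mybpc2) to −0.63 (Mybpc1).

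The rises at week 3 were Tnnc1 and Tnni1, and those at week 4 were Tnnt1, Tnni1, Myoz2 and Myh2.

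At weeks 1 and 2, 0 of the 39 genes tested passed edgeR's test, against 0.0% of all genes lower in both weeks, and 0.0% and 0.00577% higher. At an unadjusted p under 0.05 there were 29 of 39 genes at week 1, against 14.1% of all genes, and 28 of 39 at week 2, against 13.8%. All radiated samples lay below all control samples for 20 genes at week 1 (4.9% of all genes) and for 18 at week 2 (2.95%). DESeq2's Wald test called 23 lower at week 1, against 1.52% of all genes, and 20 at week 2, against 1.14%. With a term for the mouse edgeR called 0 at week 1 and 20 lower at week 2, against 0.848% of all genes. Leaving out radiated replicate 1 of week 1 gave 18 lower, against 0.728% of all genes.

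**Figure D2:**
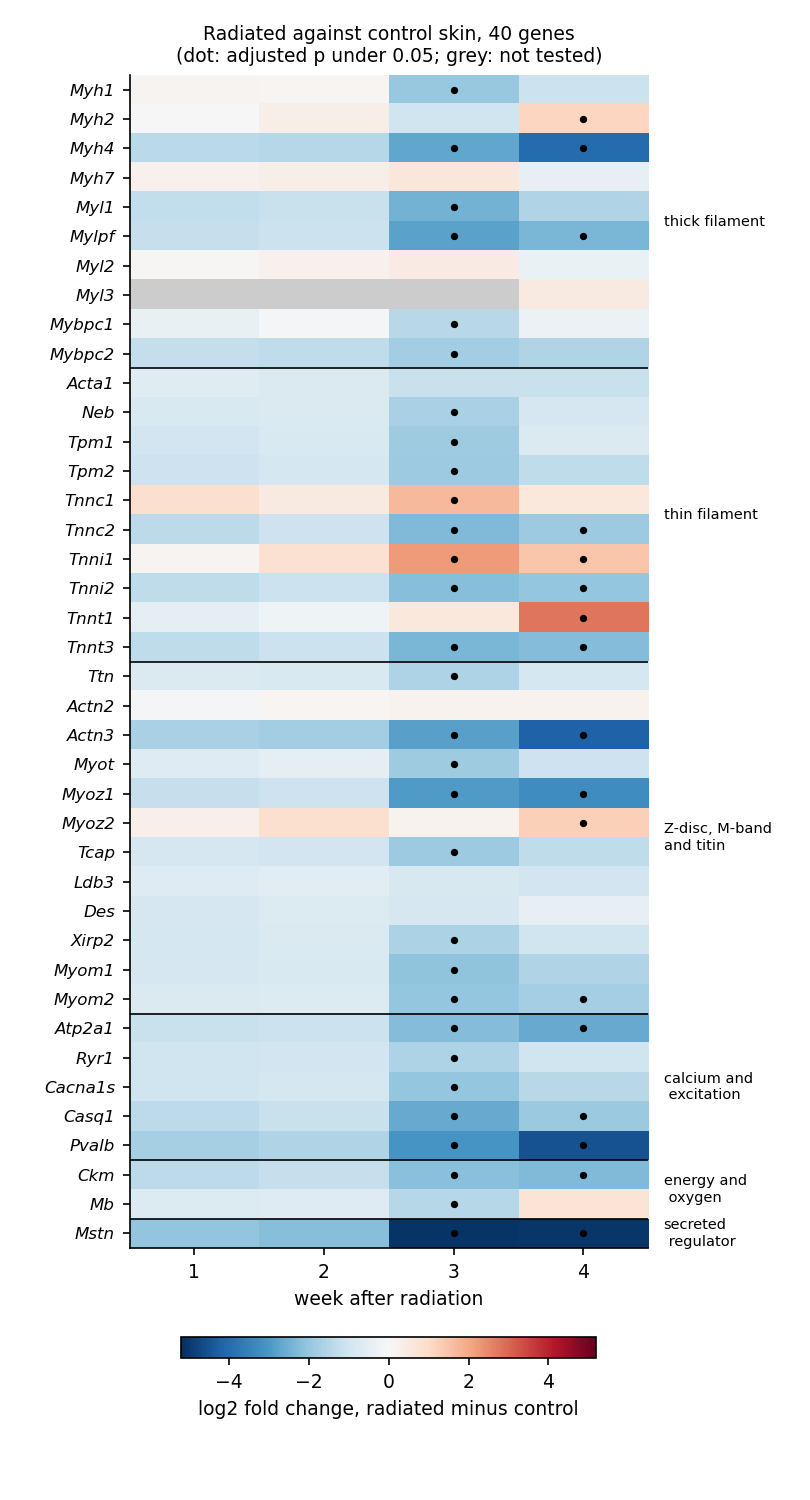
Log2 fold change of radiated against control skin for the 40 genes (rows, ordered by role) at weeks 1 to 4 (columns), with the colour scale in log2 units, a dot where the edgeR adjusted p was under 0.05 and grey where Myl3 was not tested. The dotted cells are blue (lower) apart from Tnnc1 and Tnni1 at week 3 and Myh2, Tnni1, Tnnt1 and Myoz2 at week 4.

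Among the thick filament genes, which form the myosin motors, 6 of 9 tested fell at week 3 and 0 rose. Of all genes 13.6% were called in each direction that week. At week 4, 2 of 10 fell and 1 rose, no larger a share than the 24.2% of all genes called in each direction. Myh4 in week-4 control skin was at 561, 5968, 3156 and 8269 CPM, and in radiated skin at 459, 509, 62.1 and 72.9 CPM. The groups did not overlap, although the lowest control sample was close to the highest radiated one, and Myh4 fell by 4.02 on the log2 scale (SE 0.95, edgeR adjusted p = 0.0063). It had fallen by 2.71 at week 3 (SE 0.42, edgeR adjusted p = 0.0026). Myh1, the heavy chain of IIx fibres, fell by 1.99 at week 3 (edgeR adjusted p = 0.0040), and its week-4 difference of −1.11 did not pass (adjusted p = 0.17), whereas without the control library that stood apart it was −1.46 (adjusted p = 0.0030).

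Myh2, the heavy chain of IIa fibres, differed from both. Its CPM was 424, 373, 147 and 291 in week-4 radiated skin and 113, 94.2, 271 and 94.9 in control skin. Control replicate 3 lay above 1 radiated sample, and the difference was 1.12 (SE 0.40, edgeR adjusted p = 0.044). That call was lost with a term for the mouse (edgeR adjusted p = 0.088) and without the control library that stood apart (adjusted p = 0.083). At week 3 its log2 difference was −1.02 (edgeR adjusted p = 0.058), and with a term for the mouse it passed (adjusted p = 0.045). The fast regulatory light chain Mylpf fell by 2.77 at week 3 (edgeR adjusted p = 0.0011) and by 2.37 at week 4 (adjusted p = 0.013, and 0.078 with a term for the mouse). The slow light chains Myl2 and Myl3 lay between 0.108 and 4.75 CPM in all samples and were not called in any week in which they were tested.

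Within the 4 adult heavy chains, the makeup differed between groups. As a share of their summed CPM per kb, Myh4 made up 85.5% ± 2.4 (SD, n = 4) in week-1 control skin and 63.7% ± 12.6 in week-1 radiated skin. The shares were 80.6% ± 6.7 and 57.3% ± 15.5 at week 2, and 74.9% ± 3.6 and 60.5% ± 17.5 at week 3. At week 4 they were 58.1% ± 6.9 in control skin and 12.5% ± 8.6 in radiated skin, and the radiated samples (5.29% to 22.7%) lay below all control samples (49.0% to 63.6%). The control library that stood apart had 56.5%, within that range, but its Myh2 share of 11.3% was above the 0.72% to 4.16% of the other control samples. Myh1 then made up 70.7% ± 10.7 of the heavy chains in radiated skin against 37.5% ± 6.4 in control skin, and Myh2 16.7% ± 5.1 against 4.29% ± 4.92. Myh7 stayed at or below 0.17% in every sample. In sham skin Myh4 made up 62.8% ± 11.4 (SD, n = 3), Myh1 35.2% and Myh2 1.97%. For Myh4, the radiated means of weeks 1 to 3 lay near the sham mean, and the control means of those weeks lay above it. At week 4 all radiated samples lay below all sham samples, which ran from 51.2% to 73.9%. These shares are a description without a test. They depend on how kallisto split reads between paralogs, since 39.7% of the 31-base words of Myh1, 38.5% of Myh2, 30.4% of Myh4 and 31.9% of Myh7 occur in another gene.

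**Figure D3:**
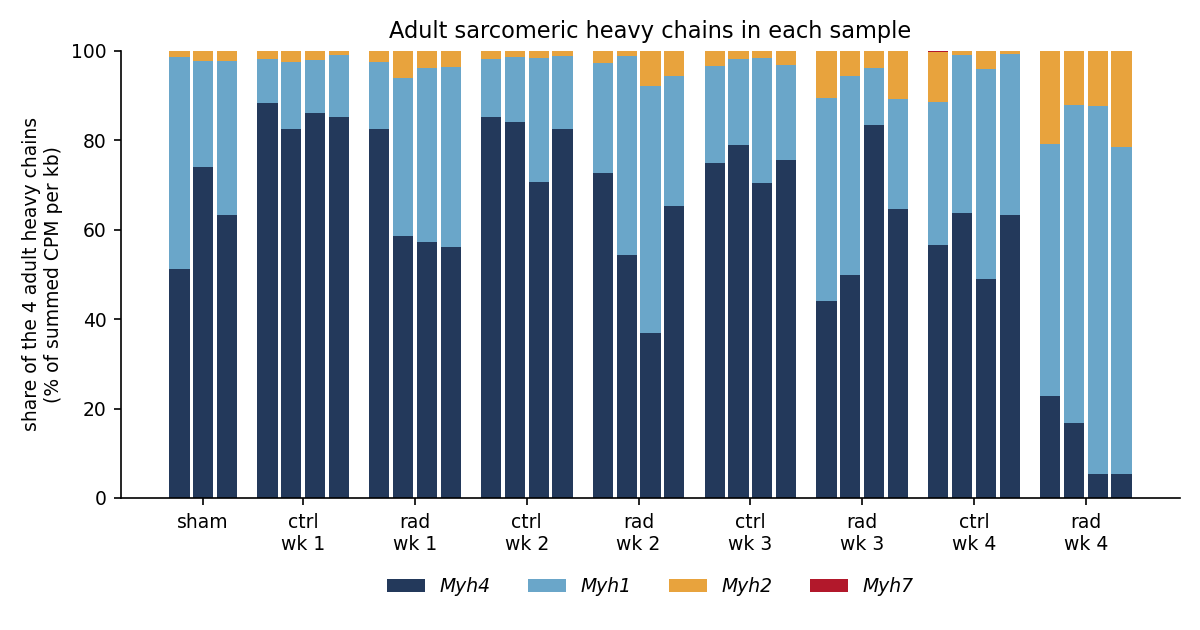
Share of the adult heavy chains Myh4, Myh1, Myh2 and Myh7 in each sample, in percent of their summed CPM per kb, as stacked bars. Each bar is 1 sample, ordered by group from sham to week 4. Myh4 takes 5.29% to 22.7% in the 4 week-4 radiated samples and 49.0% to 63.6% in the 4 control samples of that week.

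The thin filament genes divided by isoform. At week 3, 6 of 10 fell and 2 rose, against 13.6% of all genes in each direction. At week 4, 3 fell and 2 rose, near the 24.2% of all genes called in each direction. Those 3 were Tnnt3, Tnni2 and Tnnc2, and their week-4 calls were lost with a term for the mouse (edgeR adjusted p = 0.085, 0.12 and 0.12). Tnnt3 in week-3 control skin was at 5961, 7411, 4226 and 6984 CPM and in radiated skin at 1486, 1172, 1338 and 578 CPM, a fall of 2.40 (SE 0.32, edgeR adjusted p = 0.0017) with no overlap. The other fast troponins Tnni2 and Tnnc2 fell by 2.21 and 2.31 at week 3 (edgeR adjusted p = 0.0014 and 0.0015). The tropomyosins Tpm1 and Tpm2, which cover the myosin sites on actin, fell by 1.85 and 1.89, and Neb (nebulin, which runs along the thin filament) fell by 1.67 at week 3 (edgeR adjusted p from 0.0020 to 0.0066).
Acta1, skeletal actin itself, was not called in any week with all libraries. Its week-3 CPM was 1201, 2270, 914 and 1962 in control skin and 659, 340, 1504 and 256 in radiated skin, and radiated replicate 3 lay within the control range.

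Within this filament, the genes that rose were slow troponins. Tnnt1 was at 44.3, 9.42, 9.21 and 26.8 CPM in week-4 radiated skin and at 2.86, 2.12, 6.58 and 1.5 CPM in control skin. The groups did not overlap, and the rise was 2.79 on the log2 scale (SE 0.62, edgeR adjusted p = 0.0045, 6.93-fold). Tnni1 was at 3.98, 1.21, 2.02 and 2.99 CPM in week-3 radiated skin against 0.945, 0.369, 0.511 and 0.400 CPM in control skin, a rise of 2.21 (SE 0.47, edgeR adjusted p = 0.0092) with no overlap. At week 4 it was at 2.39, 1.59, 1.63 and 2.45 CPM against 0.370, 0.929, 0.811 and 0.807 CPM, a rise of 1.45 (SE 0.32, edgeR adjusted p = 0.0044). Tnnc1 at week 3 was at 7.50, 2.00, 1.98 and 1.52 CPM against 1.08, 0.983, 1.25 and 0.799 CPM. Its rise of 1.68 (edgeR adjusted p = 0.043) was lost with a term for the mouse (adjusted p = 0.080). Without radiated replicate 1, the highest, it was 0.85 (edgeR adjusted p = 0.11), and it was lost without any 1 of the 4 control samples (adjusted p from 0.077 to 0.10). Tnni1 and Tnnc1 lay above the detection floor in all of these samples, at low counts. In week-3 control skin Tnni1 went down to 0.369 CPM. Myl3, at 0.410 to 0.585 CPM in those samples, did not pass the filter on low counts that week. The week-3 test of Tnni1 thus rests on its radiated samples having passed that filter.

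**Figure D4:**
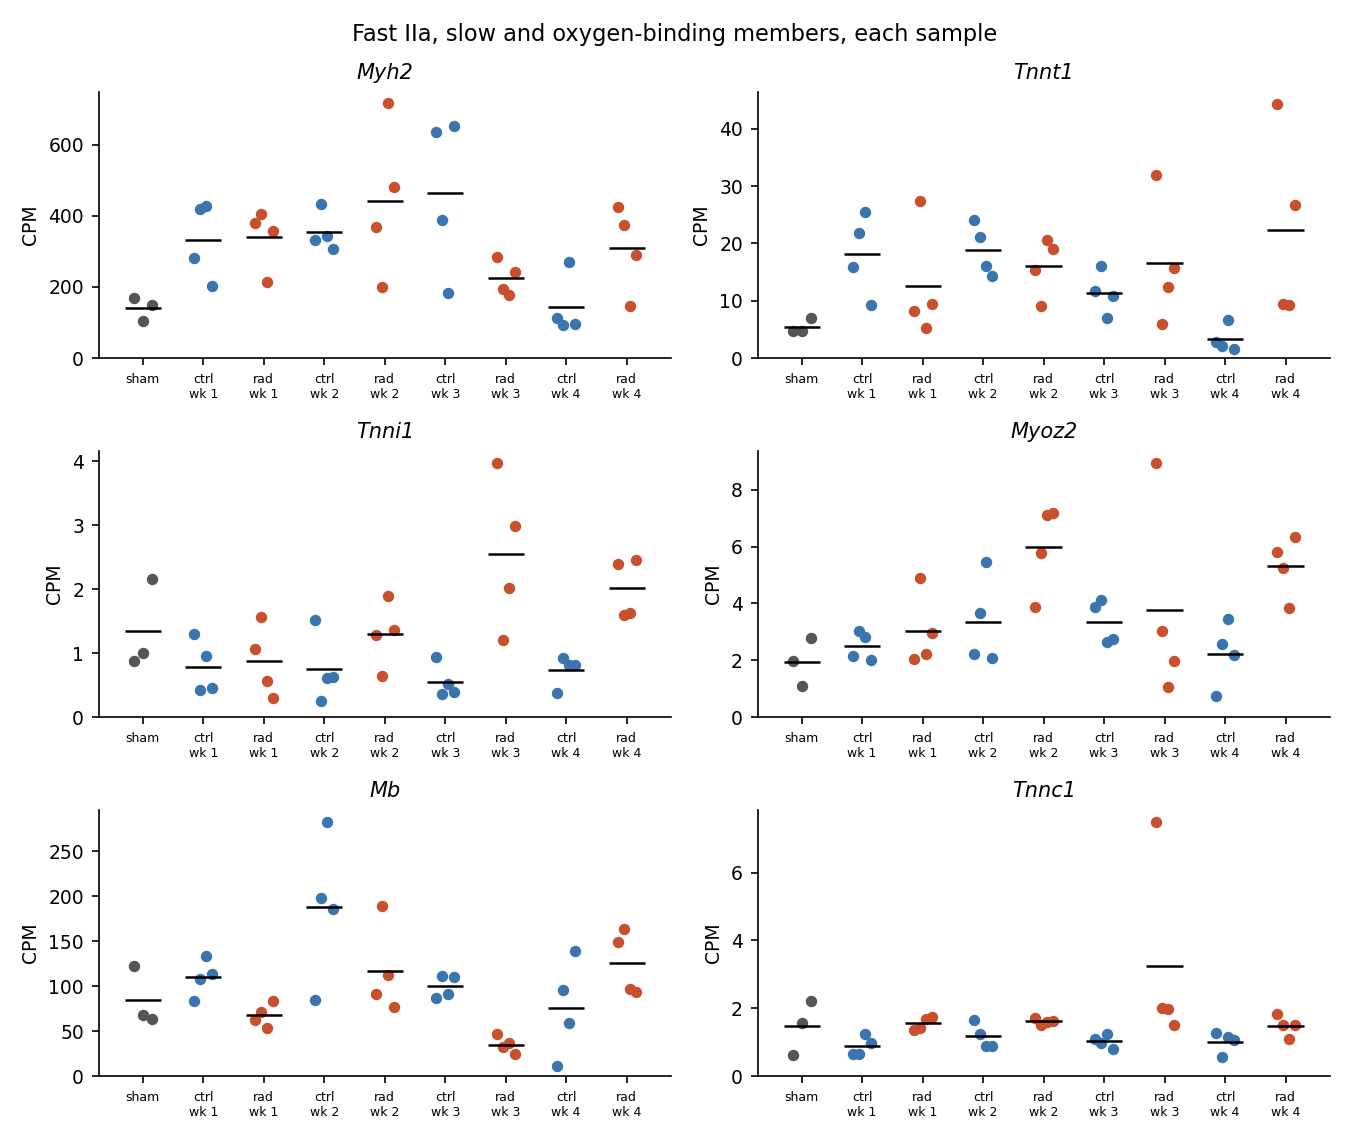
CPM, on linear axes from 0, of the 5 genes called higher in radiated skin at week 3 or 4 and of Mb, by group, with control in blue, radiated in red and sham in grey. Each point is 1 sample and each line a group mean. The week-4 radiated points of Tnnt1 lie between 9.21 and 44.3 CPM and the control points between 1.5 and 6.58 CPM.

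Of the 12 genes of the Z-disc, the M-band and titin, which anchor and align the filaments, 8 fell at week 3 and 0 rose. The share of all genes was then 13.6% in each direction. At week 4, 3 fell and 1 rose, close to or below the 24.2% of all genes called in each direction. The actinins crosslink actin at the Z-disc. Actn3, the form of fast fibres, was at 42.7, 323, 214 and 595 CPM in week-4 control skin and at 18.8, 33.1, 5.57 and 5.4 CPM in radiated skin. No sample of either group overlapped the other, and the fall was 4.22 (SE 0.85, edgeR adjusted p = 0.0026). Actn2, the form shared by all fibres, was at 34.8, 206, 187 and 241 CPM and at 208, 250, 147 and 151 CPM in the same samples, and its difference was 0.18 (SE 0.46, edgeR adjusted p = 0.77). Its sign turned without the control library that stood apart (−0.13, adjusted p = 0.58).
The calsarcins tether calcineurin at the Z-disc. Myoz1, the fast form, fell by 2.93 at week 3 and by 3.21 at week 4 (edgeR adjusted p = 0.00080 and 0.0052). Myoz2, the slow form, was at 5.80, 5.24, 3.85 and 6.33 CPM in week-4 radiated skin and at 0.741, 2.56, 3.46 and 2.19 CPM in control skin. It did not overlap, and rose by 1.24 (SE 0.37, edgeR adjusted p = 0.020), which became 0.051 without radiated replicate 4. The M-band genes Myom1 and Myom2 fell by 2.11 and 2.01 at week 3 (edgeR adjusted p = 0.0016 and 0.0021), and the week-4 call of Myom2 (−1.75, adjusted p = 0.044) was lost with a term for the mouse (adjusted p = 0.14). Tcap, Myot and Xirp2 fell by between 1.66 and 1.88 at week 3. With all libraries Des (desmin) and Ldb3 were not called at either week, with differences of −0.86 and −0.84 at week 3 (edgeR adjusted p = 0.16 and 0.19).

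All 5 genes of calcium handling and excitation fell at week 3, by between 1.62 and 3.06, and 3 of 5 fell at week 4, against 13.6% and 24.2% of all genes. Pvalb (parvalbumin, a calcium buffer of fast fibres) was at 517, 1295, 493 and 737 CPM in week-3 control skin and at 19.1, 83.9, 188 and 67.6 CPM in radiated skin. At week 4 it was at 25.2, 214, 166 and 335 CPM and at 12.4, 15.6, 2.39 and 1.2 CPM. The groups did not overlap in either week, with falls of 3.06 (SE 0.62, edgeR adjusted p = 0.0072) and 4.54 (SE 0.92, adjusted p = 0.0028). The calcium pump Atp2a1 fell by 2.26 and 2.61, and the calcium store protein Casq1 by 2.64 and 1.92. At week 4 both calls were lost with a term for the mouse (edgeR adjusted p = 0.054 and 0.075). The release channel Ryr1 and the voltage sensor Cacna1s fell at week 3, and at week 4 their differences were −1.02 and −1.43 (edgeR adjusted p = 0.16 and 0.076), or −1.36 and −1.78 without the control library that stood apart (adjusted p = 0.0014 and 0.00046).

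The energy genes were Ckm and Mb. Ckm, the muscle creatine kinase, fell by 2.17 at week 3 and by 2.28 at week 4 (edgeR adjusted p = 0.0058 and 0.015), and the week-4 call was lost with a term for the mouse (adjusted p = 0.078). Mb (myoglobin, the oxygen store of oxidative fibres) was at 86.9, 112, 91.2 and 110 CPM in week-3 control skin and at 46.5, 32.0, 36.2 and 24.2 CPM in radiated skin, a fall of 1.49 (SE 0.21, edgeR adjusted p = 0.0018) with no overlap. At week 4 its radiated samples were at 148, 163, 96.7 and 93.5 CPM and its control samples at 10.9, 95.5, 58.9 and 138 CPM. The groups overlapped and the difference was 0.73 (SE 0.57, edgeR adjusted p = 0.32).

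Fast and slow members were then set side by side. Of the 14 fast members, 13 fell at week 3, the other being Myh2, and 10 fell and Myh2 rose at week 4, where 13.6% and 24.2% of all genes were called in each direction. With a term for the mouse, 4 of the 14 fell at week 4 (21.3% of all genes in that fit), and without the control library that stood apart 13 fell and 0 rose (22.6% and 24.4%). Of the slow members, 1 of 7 tested fell at week 3 (Mybpc1, −1.45, edgeR adjusted p = 0.021) and 2 rose, and 0 of 8 fell and 3 rose at week 4, against the same shares of all genes. Without the control library that stood apart, Mybpc1 was called lower at week 4, and Tnnt1, Tnni1 and Myoz2 were called higher. The median log2 difference of the fast members was −1.30, −1.13, −2.44 and −2.13 at weeks 1 to 4, and that of the slow members was 0.15, 0.29, 0.56 and 0.52. Over all genes tested the median lay between −0.0025 and 0.08 in these weeks.

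For a single pair fixed as the textbook slow and fast heavy chains, the log2 ratio of Myh7 to Myh4 was compared in an exact two-sided permutation test. It was higher in radiated skin by 1.70, 1.85 and 3.35 at weeks 1, 2 and 3, with no overlap between groups. Each exact permutation p was 0.0286, the smallest that 4 against 4 samples can give, or 0.0327 after adjustment over 8 ratio tests. In sham skin the ratio was −11.46 ± 0.33 (SD, n = 3). At weeks 1 and 2 the radiated means of −12.06 and −11.96 lay closer to it than the control means of −13.75 and −13.81. At week 3 the radiated mean of −10.20 lay above the sham mean. At week 4 the ratio was −7.28 ± 1.5 (SD, n = 4) in radiated skin and −10.99 ± 1.97 in control skin. The difference of 3.71 did not pass (exact permutation p = 0.0857, adjusted 0.0857). Without the control library that stood apart, at −8.25, it was 4.62 with no overlap (exact permutation p = 0.0571, the smallest possible for 4 against 3). Myh7 itself lay between 0.524 and 2.16 CPM in all samples and was not called in any week, whereas Myh4 was called at weeks 3 and 4.

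The other 7 fast and slow pairs are a description without a test. The slow-to-fast log2 ratio was higher in radiated skin for all 8 pairs in all 4 weeks. Such a ratio goes up when the fast gene alone falls, so its direction does not show a rise of the slow gene. The slow partners Myh7, Myl2, Myl3, Tnnc1 and Tnni1 were at low CPM, and Myl3 was too low to be tested at weeks 1 to 3. At week 3 the groups did not overlap for 7 of 8 pairs, the exception being Mybpc1 to Mybpc2, with a difference of 0.31. The week-3 differences of the others ran from 2.13 for Myl3 to Myl1 up to 4.25 for Tnni1 to Tnni2. At week 4 the groups did not overlap for Tnnt1 to Tnnt3 (4.43), Myoz2 to Myoz1 (4.07), Tnni1 to Tnni2 (2.95) and Mybpc1 to Mybpc2 (1.26). The sham mean of the ratio lay above the week-1 control mean for every pair except Tnnt1 to Tnnt3.

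Mstn was then compared with the structural genes, taking Ttn as the fixed reference in the same sample. The log2 ratio of Mstn to Ttn in control skin was −6.73 ± 0.48, −7.41 ± 0.48, −8.55 ± 0.19 and −8.34 ± 0.75 (SD, n = 4) at weeks 1 to 4. In radiated skin it was −8.29 ± 0.58, −9.04 ± 0.90, −12.15 ± 1.31 and −12.36 ± 0.45. Radiated samples lay below control samples without overlap in every week, by −1.56, −1.63, −3.60 and −4.02. Each exact permutation p was 0.0286, the smallest possible, or 0.0327 after adjustment over 8 ratio tests. In sham skin the ratio was −8.46 ± 0.93 (SD, n = 3). The radiated means of weeks 1 and 2 lay within the sham range of −9.05 to −7.39. At weeks 3 and 4 all radiated samples lay below all sham samples. Without the control library that stood apart the week-4 difference was −3.97, with an exact permutation p of 0.0571, the smallest that 4 against 3 samples can give. As differences within a mouse the means were the same, and an exact sign-flip test of 4 pairs cannot go below 0.125. A factor common to both genes of a sample, such as its library size, cancels from this ratio.

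Against the mean log2 CPM of the 32 structural members, Mstn gave the same picture as a description. The difference was 0.37 in week-1 control skin and −1.23 in radiated skin, and it was −1.19 and −5.06 at week 3, and −1.44 and −5.35 at week 4. In sham skin it was −1.33. Relative to Ttn at week 4, the lowest members were Pvalb at −4.15, Mstn at −4.02, Actn3 at −3.54 and Myh4 at −3.51. Neb, at 0.08, kept close to Ttn. Tnnt1 (3.22), Tnni1 (1.97), Myoz2 (1.94), Mb (1.74) and Myh2 (1.73) lay highest above Ttn. Of the 14 fast members, 13 lay below Ttn at week 4 and 10 did so without overlap, counts for which the share of all genes was not taken. Of the 8 slow members 0 lay below Ttn in any week. Over the 35 samples the correlation of log2 CPM with that of Ttn was −0.19 for Myh7 and Myl3, −0.063 for Myl2 and −0.28 for Tnnc1. It was −0.42 for Tnni1, 0.19 for Myoz2, 0.20 for Tnnt1 and 0.87 for Mybpc1. For a gene that does not follow Ttn, the ratio goes up as Ttn falls, with no change of that gene.

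**Figure D5:**
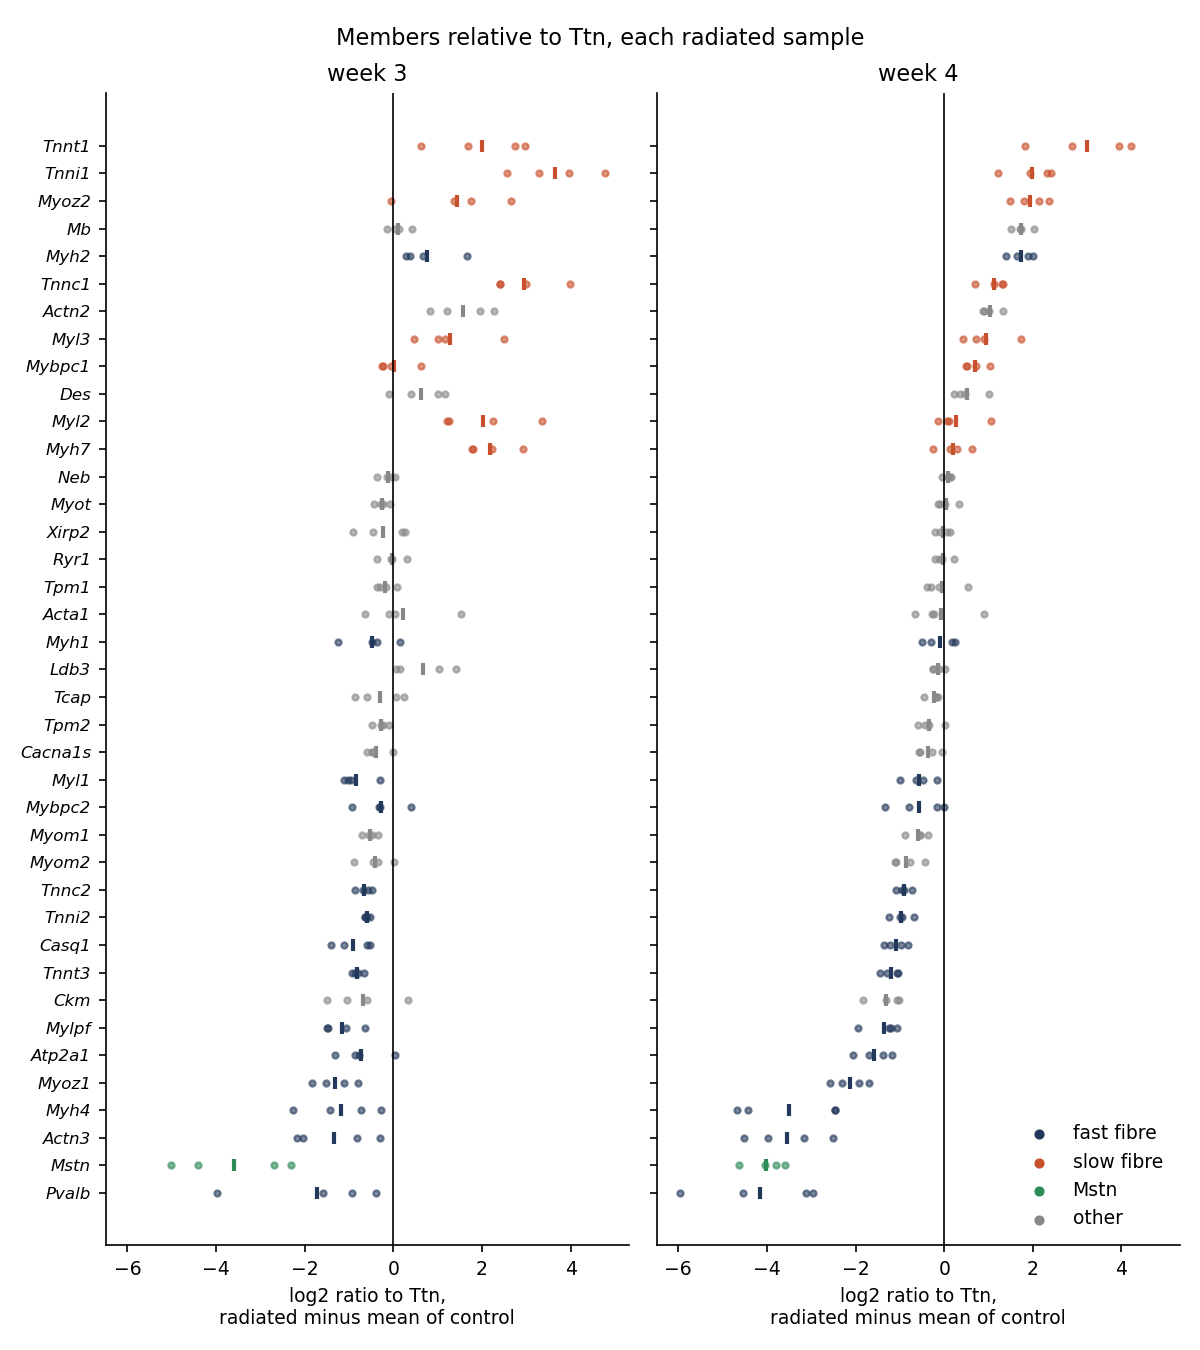
Log2 ratio of each gene to Ttn in each radiated sample minus the mean of the control samples, at week 3 (left) and week 4 (right). Points are samples and bars their means, coloured for fast members, slow members, Mstn and others, and 0 means that a gene differed as much as Ttn did. The mean of Mstn lies at −3.60 and −4.02, and those of the slow members lie above 0.

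Whether the radiated-minus-control difference itself changed over the 4 weeks was tested with the interaction terms of week and radiation. It did for 5 of the 40 genes (edgeR F test), a smaller share than the 15.6% of all genes: Tnnt1 (adjusted p = 0.0115), Mstn (0.0132), Myoz1 (0.0391), Myh2 (0.0426) and Mb (0.0462). From week 2 to week 3 the Mstn difference went down by a further −2.90 (SE 0.89, edgeR adjusted p = 0.0462), the only member called in that step, against 4.1% of all genes. With a term for the mouse this step of Mstn did not pass (−2.79, edgeR adjusted p = 0.068) and that of Myh1 did (−2.21, adjusted p = 0.044). With a term for the mouse Tnnt1 alone passed the F test (adjusted p = 0.0375), and that of Mstn was 0.0607. Leaving out all radiated and control samples of 1 replicate number gave 2, 1, 3 and 0 genes passing the F test for numbers 1 to 4. Leaving out the control library that stood apart gave 11, and Myh2 was not among them (edgeR F test, adjusted p = 0.077). The share of all genes was not taken for these counts.

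Sham skin gave another reference. Radiated skin of week 4 had 20 of 40 genes lower than sham and 3 higher (edgeR), against 11.5% and 15.2% of all genes. Pvalb was lower by −5.30, Mstn by −4.89, Actn3 by −4.27 and Myh4 by −4.02 (edgeR adjusted p from 0.0002 to 0.0064). Ttn, at 32363, 8423 and 22506 CPM in sham skin, was lower by −1.24 and did not pass (adjusted p = 0.069). Higher were Tnnt1 (2.08), Myoz2 (1.5) and Myh2 (1.18), a count that fell to 1 without sham replicate 2 or 3 or radiated replicate 1 or 4 (12.0% to 13.7% of all genes).
At week 3, 6 genes were lower (7.75% of all genes) and 0 higher (10.4%): Mstn (−3.95, edgeR adjusted p = 0.0047), Myoz1, Casq1, Mylpf, Mb and Tpm1. Without sham replicate 1 there were 2 (4.32%). At week 2, 4 were higher (2.16% of all genes), namely Tcap, Tnnt1, Myh2 and Myoz2, and at week 1 there were Myh2 and Tcap (0.543%). Without sham replicate 2 or 3 both counts were 0 (at most 0.164% of all genes). The week-1 count was also 0 without radiated replicate 1, 3 or 4 (at most 0.916%) and 1 without replicate 2 (1.32%), and the week-2 count was 0 without radiated replicate 3 (0.328%) and 1 without replicate 4 (1.44%).

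Many of the 40 genes were higher in control than in sham skin at weeks 1 to 3. The genes called higher numbered 18 at week 1 (3.28% of all genes), 15 at week 2 (1.37%), 12 at week 3 (5.18%) and 0 at week 4 (1.76%, edgeR, with 0 at an unadjusted p under 0.05, against 22.0% of all genes). At weeks 1 to 4, 0 were lower, against 1.65%, 1.06%, 6.19% and 1.9% of all genes. Mstn was at 61.1, 50.2 and 45.6 CPM in sham skin and at 261, 302, 430 and 369 CPM in week-1 control skin. It did not overlap, and was higher by 2.69 (SE 0.20, edgeR adjusted p = 0.0071).
These counts rested on single libraries. Without sham replicate 1 they were 31, 30 and 29, against 5.48%, 2.8% and 6.12% of all genes. Without sham replicate 2 or 3 they were 0, against at most 0.0055% of all genes at weeks 1 and 2 and 1.98% at week 3. At week 1 there were 2 without control replicate 2 and 1 without replicate 3 or 4 (at most 0.113% of all genes). At week 2 there were 30 without control replicate 1 (6.54%), 1 without replicate 3 (0.0227%) and 0 without replicate 2 or 4 (at most 0.0226%). At week 3 there were 2, 1 and 4 without control replicates 1, 2 and 4 (2.91%, 2.44% and 3.48%). Both the radiated and the control comparisons use the same 3 sham samples.

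Among 50 other skeletal muscle genes, fixed as a list of related structural, metabolic and membrane genes, the pattern across weeks was alike. At week 3, 30 of 50 fell and 0 rose, against 13.6% of all genes in each direction. The median log2 difference was −1.38, against 0.08 over all genes. At week 4, 14 fell and 1 rose, against 24.2% of all genes in each direction, and without the control library that stood apart 40 fell (22.6% of all genes). Among the most abundant of them, Cmya5 fell by 1.79 at week 3, Pfkm (muscle phosphofructokinase) by 1.59 and Srl by 2.10 (edgeR adjusted p from 0.0022 to 0.0053). At weeks 1 and 2, 0 of 50 passed edgeR's test, with 38 and 31 at an unadjusted p under 0.05, against 14.1% and 13.8% of all genes. DESeq2's Wald test called 26 and 22 lower, against 1.52% and 1.14% of all genes.

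Markers of other cell types were counted in the same comparisons, in which 13.6% of all genes were called in each direction at week 3 and 24.2% at week 4. Smooth muscle genes, which use other actin and myosin isoforms, fell for 4 of 8 at week 3 and 5 of 8 at week 4, and their summed level was 439 to 506 CPM in week-4 radiated skin and 742 to 1173 CPM in control skin. All 6 fibroblast genes rose at week 4, with a summed level of 27896 to 47066 CPM against 2207 to 4634 CPM, and 1 of 6 rose at week 3. Leukocyte genes rose for 4 of 6 at week 3 and 5 of 6 at week 4, with 518 to 756 CPM against 113 to 131 CPM at week 4. Of 6 keratinocyte genes, 1 fell and 1 rose at week 3, and 4 fell and 1 rose at week 4. Endothelial genes rose for 1 of 5 and 4 of 5, and adipocyte genes fell for 1 of 6 and 2 of 6. The keratinocyte, adipocyte, fibroblast and endothelial counts at week 3 lie near the 13.6% of all genes. The part of these markers in the falls of the muscle genes was not tested.

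Genes were last ordered by how closely they followed Ttn over the 35 samples, as the correlation of log2 CPM after the mean of each group was taken away. This is a description, since samples of 1 mouse share an animal and all genes of a sample share its biopsy. Tnnc2, Ryr1 and Neb followed Ttn most closely (r = 0.96 each), then Cacna1s and Myom1 (0.95 each). Mstn had r = 0.63 with Ttn, Myh2 0.14, and Tnnt1 −0.04. The genes closest to Mstn were Actn3 (0.92), Myh4 (0.87), Mybpc2 (0.84), Myoz1 (0.82) and Pvalb (0.81), all of them fast members.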

How the data were processed

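Total RNA from skin biopsies was sequenced by a commercial provider, per the labels' protocols. The submitters' processing notes name Trim Galore 0.6.7, kallisto 0.46.2 and the build mm10. The annotation release and the step from transcripts to genes are not given in the sources used here. The values deposited by the authors are estimated counts (expected counts) per gene, not scaled between samples. Of the values of a sample, 29.5% to 32.5% were not whole, and they were rounded here.

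The count model was the negative binomial fit of edgeR 4.0.16, run under R 4.3.3 (filterByExpr, TMM scaling, quasi-likelihood F test, Benjamini-Hochberg adjustment over all genes tested, threshold 0.05), each pair of groups in its own fit. The script was tested on simulated data. CPM are scaled by TMM factors over all samples, with a prior count of 2 on the log2 scale. Ratios were tested by exact permutation over samples. Gene lengths and positions are from a GENCODE annotation of GRCm38, which is mm10. DESeq2 1.42.0, other scalings and filters, a term for the mouse and leaving out each sample were the alternatives.

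All 40 genes may be named. Of the other muscle genes, the 4 most abundant are named, apart from 1 not reported here, and genes of the embryonic and myogenic lists may be. The 4 most abundant of each marker list could have been named and are given only within its counts and sums. The genes and lists were chosen with earlier results of these data known. The pairing was inferred from the week and number in the labels and the count of mice; no label states it outright. Over 16406 genes, deviations of same-numbered samples had a mean correlation of 0.0812, 0.243, 0.0782 and −0.0244 at weeks 1 to 4, and other-numbered samples −0.0270, −0.0792, −0.0244 and 0.0105. Counting limits cover counting error only. In 0 pairs of libraries were the values identical.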

Additional observations from a re-analysis of the deposited data

Results flagged for a closer look

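Within a group of 4, a sample was marked when its gap to the nearest other was, as a share of the group's range, above Dixon's 95% critical value for 4 samples, which chance gives in about 1 in 20 groups. Of 360 such group checks of the 40 genes and of scores made from them, 16 were marked. In week-1 control skin the highest sample had 57560 CPM of Ttn, and the highest difference between the mean log2 CPM of fast and slow members was 9.193. In week-1 radiated skin the highest samples had 908 CPM of Actn3, 821.1 CPM of Mybpc2, 182.4 CPM of Mstn (all of these in replicate 1) and 3928 CPM of Myh1 (replicate 4). In week-2 radiated skin the lowest Acta1 sample had 772.5 CPM and the highest Cacna1s sample 174.8 CPM. In week-3 control skin the highest Myom2 sample had 875.4 CPM. In week-3 radiated skin the highest samples had 223.7 CPM of Actn3 and 609.2 CPM of Ckm (both replicate 3) and 7.497 CPM of Tnnc1 (replicate 1), and the lowest had 104 CPM of Myom1 and 133.5 CPM of Tnnc2 (both replicate 4). At week 4 the highest Myh2 sample of control skin had 270.9 CPM and the highest Myh1 sample of radiated skin 2192 CPM.

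The radiated-minus-control difference was not the same in all weeks for 5 of the 40 genes by edgeR's F test of the interaction terms, a share below the 15.6% of all genes: the adjusted p was 0.0426 for Myh2, 0.0391 for Myoz1, 0.0115 for Tnnt1, 0.0132 for Mstn and 0.0462 for Mb. Only Tnnt1 passed with a term for the mouse, and the adjusted p was 0.11 for Myh2, 0.15 for Myoz1, 0.061 for Mstn and 0.057 for Mb. The Tnnt1 difference was −0.52 at week 1 and 2.79 at week 4. The Mb difference was −1.49 at week 3 and 0.73 at week 4.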

How the results depend on the processing

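Depth limits the slow members most: Myl3 was near the floor of 3 counts in several libraries and was tested against control skin at week 4 only. Scaling by total counts left the 28 lower and 2 higher genes of week 3 and the 13 and 4 of week 4 as counts, but moved the median of all genes at week 3 from 0.08 to 0.32 and the share of higher genes among all calls from 50.1% to 76.1%. Against sham that share went from 66.5%, 56.3% and 45.5% to 43.5%, 38.1% and 22.6% for control skin of weeks 1 to 3, and from 42.7% to 28.7% for radiated skin of week 2.

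With DESeq2's Wald test, 23 of the 39 genes tested were lower than control at week 1 (1.52% of all genes) and 20 at week 2 (1.14%). Against sham it called 7 higher in radiated skin at week 2, 14 lower and 2 higher at week 3, and 28, 32 and 32 higher in control skin at weeks 1 to 3. For steps of the difference it called 3 lower from week 2 to 3 and 2 higher from week 3 to 4. No share of all genes was taken for these DESeq2 counts against sham and of steps. With 1 fit of all samples, 1 gene was lower than control at week 2 (0.459% of all genes) and 20 at week 4. Against sham that fit called 0 higher in radiated skin at week 1 and 3 at week 3, and 4 and 1 higher in control skin at weeks 1 and 3. Total-count scaling gave 1 and a filter at a mean of 1 CPM gave 2 higher than sham at week 2. With no filter, 24 genes were higher in week-2 control skin than in sham, and 0 differences went down from week 2 to 3. Counts without a share of all genes beside them, here and below, cannot be set against all genes.

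With a replicate block for the mouse, 20 genes were lower than control at week 2 (0.848% of all genes) and 1 was higher at week 3 (10.0%). In that setting 5 were lower at week 4, and 1 had a difference that varied over weeks. A block by number against sham, where the numbers are of different mice, called 0, 1, 1 and 0 higher in radiated skin at weeks 1 to 4 and 0 higher in control skin of weeks 1 to 3. The paired ratio differences under this block were −1.56, −1.63, −3.60 and −4.02 for Mstn to Ttn and 1.70, 1.85 and 3.35 for Myh7 to Myh4, where a sign-flip test cannot go below 0.125. Using medians over the lists, fast minus slow differed by −1.84 at week 1 and −1.58 at week 4. The cause of these changes was not tested.

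Leaving out 1 sample at a time, lower genes ranged from 0 to 18 at week 1, against at most 0.728% of all genes. They ranged from 26 to 29 at week 3 (9.12% to 14.0%) and from 9 to 30 at week 4 (19.8% to 23.1%). Higher genes ranged from 1 to 2 at week 3 (8.75% to 14.2%) and from 2 to 4 at week 4 (21.0% to 24.4%). Against sham, radiated skin had 0 to 2, 0 to 6, 0 to 1 and 1 to 3 higher at weeks 1 to 4 and 2 to 9 and 15 to 25 lower at weeks 3 and 4, and control skin had 0 to 31, 0 to 30 and 0 to 29 higher at weeks 1 to 3. For the change of the difference over weeks, all radiated and control samples of 1 replicate number, or the control library that stood apart, were left out instead. Varying differences then ranged from 0 to 11, lower steps from week 2 to 3 from 0 to 5, and higher steps from week 3 to 4 from 0 to 1. The Mstn to Ttn difference ranged from −1.84 to −1.35, −1.91 to −1.36, −4.04 to −3.13 and −4.37 to −3.77, and that of Myh7 to Myh4 from 1.30 to 2.08, 1.41 to 2.14, 3.13 to 3.78 and 3.06 to 4.62. Mstn minus the structural genes ranged from −1.96 to −1.38, −2.14 to −1.47, −4.24 to −3.40 and −4.15 to −3.65, and fast minus slow from −1.56 to −0.96, −1.56 to −1.14, −3.09 to −2.49 and −3.29 to −2.32. Medians near 0 changed sign: week-1 radiated skin against sham (0.26) gave −0.00018 without sham replicate 2 and ranged from −0.045 without radiated replicate 1 to 0.67 without sham replicate 1, and week-4 control skin against sham (−0.02) ranged from −0.49 without control replicate 4 to 0.32 without sham replicate 1 or control replicate 1.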

Other observations

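Sarcomere genes of embryonic, perinatal and cardiac muscle were measured beside the adult ones. Myh3, the embryonic heavy chain, was at 17.1, 1.44, 0.461 and 2.77 CPM in week-4 radiated skin and at 0, 0.133, 0.171 and 0.0384 CPM in control skin. The highest value was in radiated replicate 1. As counts these were 401, 37, 11 and 62 in radiated skin and 0, 3, 4 and 1 in control skin, too few for a fold, and Myh3 passed the filter on low counts through the radiated samples alone, so these values are a description. Tnni3, cardiac troponin I, was higher at week 4 (1.05 on the log2 scale, edgeR adjusted p = 0.044), a call lost with a term for the mouse (adjusted p = 0.066). Of this list of 7 genes, 1 of 5 tested fell at week 3, the perinatal heavy chain Myh8 (−0.78, edgeR adjusted p = 0.017), against 13.6% of all genes, and at week 4 Tnni3 was the 1 call among the 4 tested beside Myh3, a share near the 24.2% of all genes called higher.

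Of 8 genes of muscle stem cells and myoblasts, 1 of 4 tested fell at week 3, and 1 of 5 fell and 1 rose at week 4, against 13.6% and 24.2% of all genes in each direction. Pax7, the transcription factor of satellite cells, was at 1.71, 2.58, 1.58 and 2.51 CPM in week-3 control skin and at 0.686, 0.653, 0.457 and 0.46 CPM in radiated skin. It did not overlap and fell by 1.86 (edgeR adjusted p = 0.0049). Myog, which drives myoblast differentiation, was at 8.87, 8.30, 6.05 and 0.737 CPM in week-3 radiated skin and at 1.89, 2.74, 0.697 and 3.25 CPM in control skin. Radiated replicates 1 to 3 lay above all control samples and replicate 4 did not, and the difference did not pass (edgeR adjusted p = 0.12). At week 4 Myod1 fell by 1.52 (edgeR adjusted p = 0.013). Ncam1, an adhesion molecule also made by nerve, was at 102, 66.5, 33.7 and 44.7 CPM in radiated skin and at 25.6 to 28.7 CPM in control skin, a rise of 1.19 (edgeR adjusted p = 0.0077).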
